A study of Mus musculus with 12 samples.

Results

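Histone genes were followed in the livers of mice given triptolide, with or without crocin. Members were taken by gene name alone: names that begin with H1f, H2ac, H2bc, H3c, H4c, H2az or H3f3, or with Hist1h to Hist4h. Of 55487 genes listed, 76 had such a name, and 72 of them had a count in at least 1 library and were kept. H1f7, H1f8, H2ac1 and H2ac10 had no count in any of the 12 libraries and were left out. The 72 genes comprised 60 replication-dependent genes, 6 replication-independent genes (H1f0, H1f10, H2az1, H2az2, H3f3a and H3f3b), 2 germ line genes (H1f6 and H2bc1), 3 annotated pseudogenes (Hist1h2al, H3f3c and H2ac14) and H3f3aos, an antisense transcript of H3f3a.

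The MTP + CR group was given 300 μg/kg triptolide together with 100 mg/kg crocin, the MTP group 300 μg/kg triptolide, and the Control group normal saline, all by gavage for 7 days. The animals were healthy male Kunming mice aged 7 to 8 weeks, with 4 livers and 4 libraries in each group. Triptolide, a diterpenoid from a medicinal vine, blocks transcription by RNA polymerase II. Crocin is the pigment that colours saffron. RNA was enriched for mRNA before sequencing, and every value is from whole liver. Nothing in the labels says more of how the animals were housed or grouped, so p-values measure the spread between these livers.

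Histones are the proteins around which DNA is wound. Replication-dependent histone genes lie in clusters, are transcribed mainly while DNA is replicated, and give mRNAs that end in a conserved stem-loop, which SLBP binds, in place of a poly(A) tail. Replication-independent genes are active through the cell cycle and in resting cells, have introns in most cases and give ordinary polyadenylated mRNAs. Most hepatocytes of an adult liver do not divide. In bulk tissue, more cells that make a transcript and more of it per cell cannot be told apart, and a library enriched for mRNA need not capture the stem-loop form of these mRNAs as well as any polyadenylated form.

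Of the 72 genes, 54 lie on chromosome 13, 11 on chromosome 3 and 7 elsewhere (mm10). The stem-loop is shown here because it is the feature that sets most replication-dependent mRNAs apart from other mRNAs. It was searched as a stem of 6 paired bases around a loop of 4 bases in the GENCODE vM21 transcripts, and 42 of the 60 replication-dependent genes had it in an annotated transcript. Among protein-coding members the share was 63.2% (43 of 68), against 1.44% of 21951 protein-coding genes, and it lay within 100 bases of the annotated end in 33.8%, against 0.164%. The following are the stem-loops of 4 genes called in the comparisons, with 5 bases on each side and the arms of the stem in capitals.
H2ac6 (chr13:23683477-23683492, minus strand): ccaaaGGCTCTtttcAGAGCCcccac
H3c7 (chr13:23544932-23544947, plus strand): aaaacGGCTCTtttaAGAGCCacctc
H4c3 (chr13:23698089-23698104, minus strand): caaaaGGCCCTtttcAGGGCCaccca
H4c11 (chr13:21735437-21735452, plus strand): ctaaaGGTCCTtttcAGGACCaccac
The coordinates are those of the stem and loop. The form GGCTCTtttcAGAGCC was shared by 24 members of the H1, H2A, H2B and H3 families, and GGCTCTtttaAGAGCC by 6. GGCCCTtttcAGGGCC was found in 6 members, all of them H4 genes. In several genes the annotated transcript runs on far past the stem-loop, by 2010 bases in H2ac6, 4884 in H1f3, 1153 in H1f4 and 840 in H1f2. At least 1 annotated end with a poly(A) signal was present in 13 of the 60 replication-dependent genes.

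Sequence is shared widely within the family. In 30 of the 72 genes over 50% of the 100-base windows also occurred in the transcript of another gene, and 7 genes shared no window. All windows of H2ac19 (100%) occur in H2ac18, and all those of H2ac18 (100%) occur in another gene, Gm20633 first. H2ac18 and H2ac19 are also given as a sum. How reads that fit more than 1 gene were counted is not given in the sources used here, so the split between genes that share windows is unknown, called members such as Hist1h4n included. Gm20632, Gm20633 and Gm20634, gene models at the locus of H2ac18, share sequence with it. H2bc6 overlaps exons of H1f4 on the same strand, and reads from the 2 genes cannot be told apart there.

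Library totals ran from 15509226 to 18430566 counts, and TMM factors ran from 0.823 to 0.989 in MTP + CR, from 1.07 to 1.52 in MTP and from 0.836 to 0.952 in Control. CPM values below carry these factors. With them the median log2 fold change over all genes tested was -0.03 for MTP + CR against MTP, and 0.02 for MTP against Control. Total counts alone moved these medians to -0.54 and 0.50. MTP 4 stood apart from its group. Its median Spearman correlation was 0.924 with the other MTP libraries, 0.945 with MTP + CR and 0.937 with Control. MTP + CR 2 was also nearer to another group, at 0.952 with Control and 0.942 with MTP + CR, and MTP + CR 4 had the lowest correlation with its own group, 0.917. Calls were therefore also made without MTP 4 and without MTP + CR 2, which for the family sums and the lists of other genes was added after the values were seen.

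Of all genes, 19104 to 21344 had a count in MTP + CR livers, 21225 to 24070 in MTP livers and 19907 to 20702 in Control livers, so MTP livers had more genes of any kind with a count than Control livers. Of the 60 replication-dependent genes, 39, 46, 45 and 46 had a count in MTP + CR 1 to 4, 57, 55, 57 and 47 in MTP 1 to 4, and 37, 25, 33 and 31 in Control 1 to 4. Neither of the other groups overlapped the MTP group, whose lowest library was MTP 4. In H3 genes, which give the core histone H3.1 and H3.2 proteins, 10 to 12 of 12 genes had a count in each MTP liver and 3 to 5 in each Control liver. In H4 genes 11 to 12 of 12 had a count in MTP livers and 4 to 8 in Control livers.

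**Figure D1:**
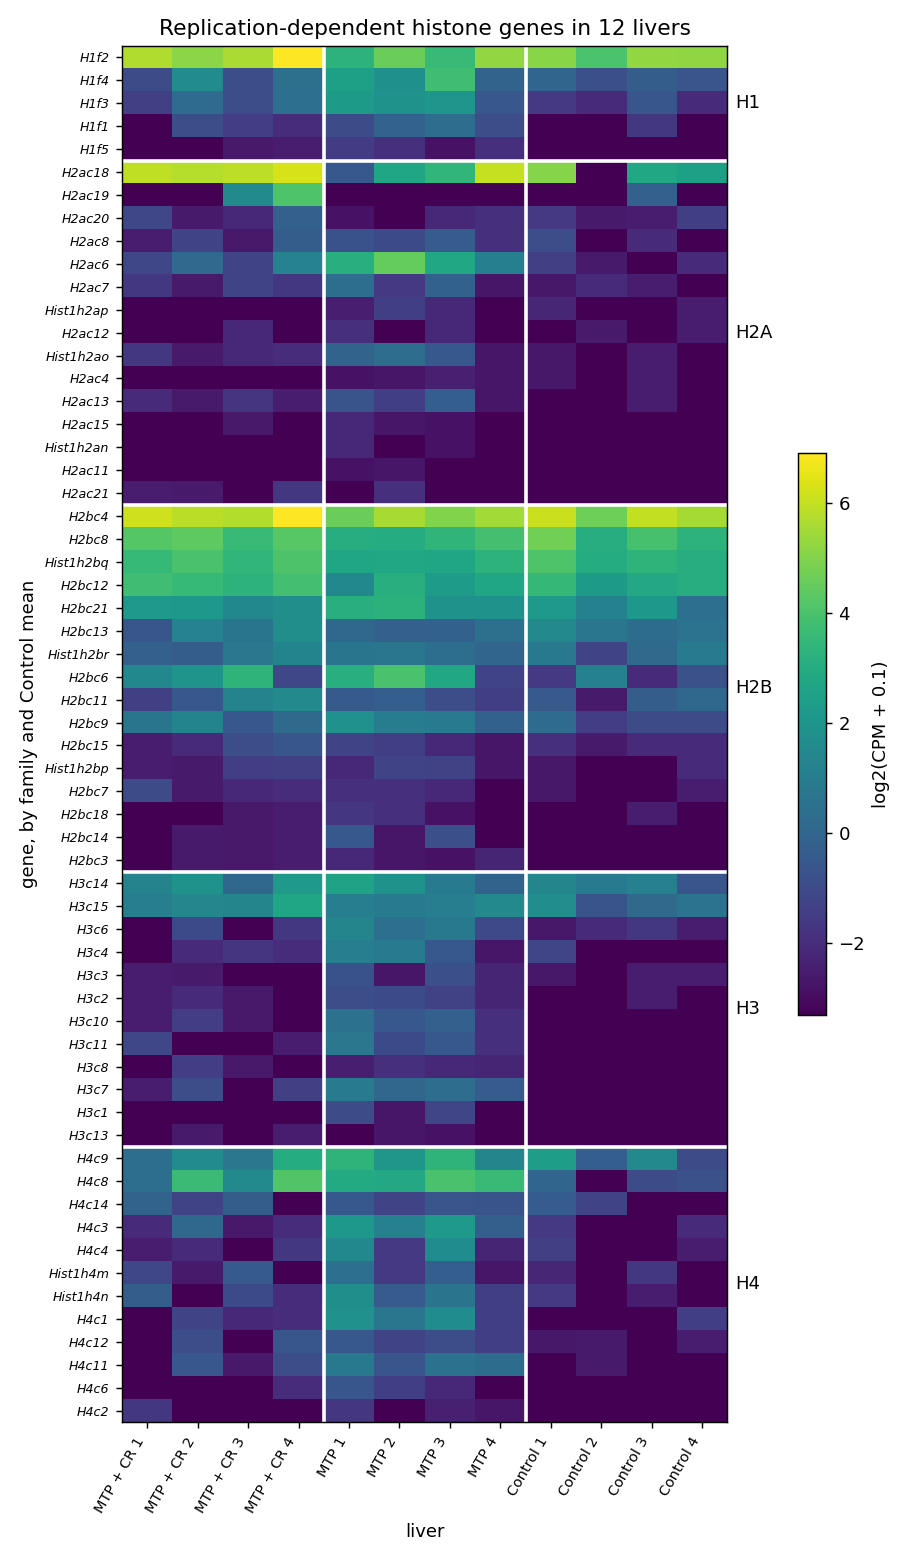
Heat map of the 60 replication-dependent histone genes (rows, grouped by family and ordered by their Control mean) in the 12 livers (columns, MTP + CR, MTP and Control from left to right), with colour giving log2(CPM + 0.1). Genes near 0 in Control, among them most H3 and H4 genes, are brighter in MTP 1 to 3 and less so in MTP 4, whereas the H2B genes with the highest Control levels are not.

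The families differed in their summed levels. The 12 H4 genes summed to 4.76, 18.2, 6.401 and 27.4 CPM in MTP + CR 1 to 4, 36.5, 17.7, 41.2 and 17.8 CPM in MTP 1 to 4, and 7.70, 1.20, 3.48 and 1.46 CPM in Control 1 to 4. MTP and Control livers did not overlap, and MTP + CR livers spanned the gap between them. The 12 replication-dependent H3 genes summed to 11.2 ± 5.37 CPM in MTP livers and 3.55 ± 1.81 CPM in Control livers (SD, n = 4 each), and MTP 4 at 5.33 CPM lay below Control 1 at 6.11 CPM. The 16 H2B genes, whose protein pairs with H2A in the nucleosome, summed to 135 ± 35.2 CPM in MTP + CR livers, 80.7 ± 16.2 CPM in MTP livers and 92.6 ± 34.8 CPM in Control livers, and each MTP + CR library exceeded each MTP library. This rests on the TMM factors: without them the H2B sums averaged 118.3 CPM in MTP + CR livers, 99.99 CPM in MTP livers and 83.9 CPM in Control livers, and MTP + CR 1 and MTP + CR 3, at 110.4 and 90.9 CPM, lay below MTP 2 at 117.7 CPM. The 15 H2A genes summed to 70.9 ± 19.9 CPM in MTP + CR livers, 33.0 ± 23.8 CPM in MTP livers and 12.3 ± 15.2 CPM in Control livers. H2ac18 was most of this sum in MTP 4 (64.2 of 66.8 CPM), whereas H2ac6 was most of it in MTP 1 (8.66 of 12.96 CPM) and MTP 2 (22.6 of 31.7 CPM). The 5 replication-dependent H1 genes, which encode the linker histone that binds DNA between nucleosomes, summed to 31.0 ± 7.92 CPM in MTP livers and 32.4 ± 10.4 CPM in Control livers. Without the TMM factors the order of these means turned, with 38.0 CPM in MTP livers and 29.2 CPM in Control livers. H1f2 was the larger part of the H1 sum in each Control liver but not in MTP 1 (9.68 of 20.7 CPM) or MTP 3 (12.3 of 31.1 CPM). Without MTP 4 the MTP sums averaged 31.8 ± 12.4 CPM for H4, 13.1 ± 4.54 CPM for H3, 79.9 ± 19.7 CPM for H2B, 21.8 ± 9.42 CPM for H2A and 28.05 ± 6.42 CPM for H1 (SD, n = 3), and the H3 sums no longer overlapped those of Control.

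**Figure D2:**
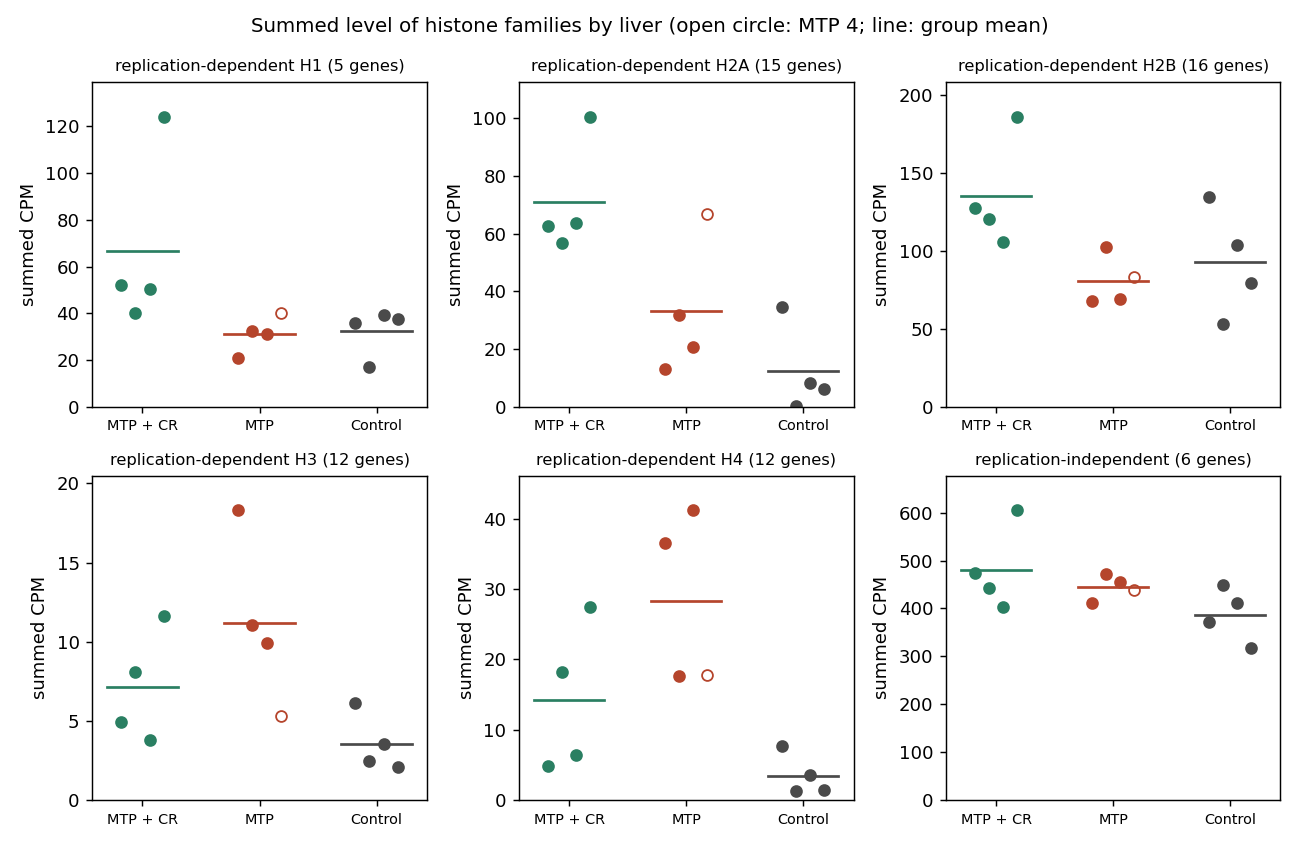
Summed CPM of each replication-dependent family and of the 6 replication-independent genes, with 1 point per liver, a line at each group mean and an open circle for MTP 4. The H4 sums of MTP livers (17.7 to 41.2) all lie above those of Control livers (1.20 to 7.70), whereas the H2B sums of the MTP and Control groups overlap.

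The comparison of MTP with Control asked what triptolide changed. Counts were tested in edgeR with the quasi-likelihood test and Benjamini-Hochberg adjustment over 15197 genes, with calls made where the adjusted p was below 0.05 and the change exceeded 1.5-fold. The filter kept 32 of the 72 members, and the other 40 were too low to be tested. In MTP livers 9 members were called higher and 0 lower than in Control livers. Over all genes tested 5.40% were called, 2.61% higher and 2.78% lower. At an unadjusted p under 0.05, 14 members were higher and 0 lower, against 11.6% and 11.2% of all genes tested. DESeq2 called 13 members higher and 0 lower, against 5.59% and 6.01% of all genes. The filter can pass a member through the group in which it is high, so the share among the 32 is not a measure of the family. Without the filter all 72 members were tested, and 13 were called higher and 0 lower, where 2.24% of 30035 genes were called, 1.06% higher and 1.18% lower. The limit from the filter also bears on the median log2 fold change of the 32, which was 0.82, against 0.02 over all genes tested.

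Among the members called, 4 encode histone H4, the most conserved of the core histones. H4c8 had 7.67, 7.19, 15.6 and 11.9 CPM in MTP 1 to 4, against 0.913, 0, 0.426 and 0.486 CPM in Control 1 to 4. Every MTP liver was far above the highest Control liver, and MTP 4 was among the high ones. Its log2 fold change was 4.49 ± 0.87 (SE), with an adjusted p of 0.0129 in edgeR. H4c3 had 4.27, 2.12, 4.54 and 0.754 CPM in MTP livers, against 0.228, 0, 0 and 0.139 CPM in Control livers. MTP 4 was the lowest of its group but still above each Control liver, and the log2 fold change was 4.82 ± 0.98 (adjusted p 0.0156, edgeR). H4c11 had 1.68, 0.557, 1.33 and 1.13 CPM in MTP livers and a count in only 1 Control liver, at 0.0668 CPM (log2 fold change 5.64 ± 1.09, adjusted p 0.0131, edgeR). Hist1h4n had 3.32, 0.668, 1.46 and 0.269 CPM in MTP livers, against 0.228, 0, 0.0710 and 0 CPM in Control livers. It shares 80.7% of its windows, most of all with Hist1h4m, and the sum of both was 4.55, 0.891, 2.19 and 0.323 CPM in MTP livers and at most 0.342 CPM in Control livers, which overlap.

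The other core histones had 1 protein-coding gene each for H2A and H3 among the members called. H2ac6 had 8.66, 22.6, 6.73 and 2.05 CPM in MTP 1 to 4, against 0.285, 0.0668, 0 and 0.139 CPM in Control 1 to 4. The groups were far apart, with MTP 2 highest and MTP 4 lowest, and the log2 fold change was 6.20 ± 0.95 (adjusted p 0.00633, edgeR). Exons of Gm24991 on the same strand overlap H2ac6, and reads from the 2 genes cannot be told apart there. Gm44350 overlaps it on the other strand, with the same limit if strand was not used. H3c7 had 1.76, 0.947, 1.16 and 0.700 CPM in MTP livers and no count in any Control liver. Its 100 counts in MTP livers make it at least 24.1-fold higher than the level that 3 counts over the Control group would give. The fitted log2 value of 7.29 ± 1.27 (adjusted p 0.0127, edgeR) depends on the prior count and is no bound.

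In the H1 family H1f3 had 4.72, 3.68, 4.11 and 0.592 CPM in MTP livers, against 0.228, 0.134, 0.568 and 0.139 CPM in Control livers. MTP 4 exceeded the highest Control liver by little, whereas the other MTP livers were far above it (log2 fold change 3.60 ± 0.72, adjusted p 0.0149, edgeR). H1f4 had 5.62, 3.40, 13.5 and 0.861 CPM in MTP livers, against 0.913, 0.468, 0.710 and 0.556 CPM in Control livers, so the groups overlapped at MTP 4 (log2 fold change 3.13 ± 0.78, adjusted p 0.0358, edgeR). H1f2, the replication-dependent H1 gene with the highest mean in each group, was not called. It had 9.68, 24.3, 12.3 and 37.9 CPM in MTP livers and 34.5, 16.3, 37.8 and 36.9 CPM in Control livers.

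Hist1h2al, annotated as a processed pseudogene and named for H2A, was also called, with 13.1 to 15.4 CPM in MTP 1 to 3 and 39.8 CPM in MTP 4, against 8.50, 1.54, 5.96 and 7.43 CPM in Control livers (log2 fold change 1.83 ± 0.48, adjusted p 0.0449, edgeR). It shares 19.2% of its windows, most of all with H2ac19 and H2ac18, and exons of Gm44341 overlap it on the other strand, so reads of both cannot be told apart if strand was not used. Among MTP livers it was highest in MTP 4.

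**Figure D3:**
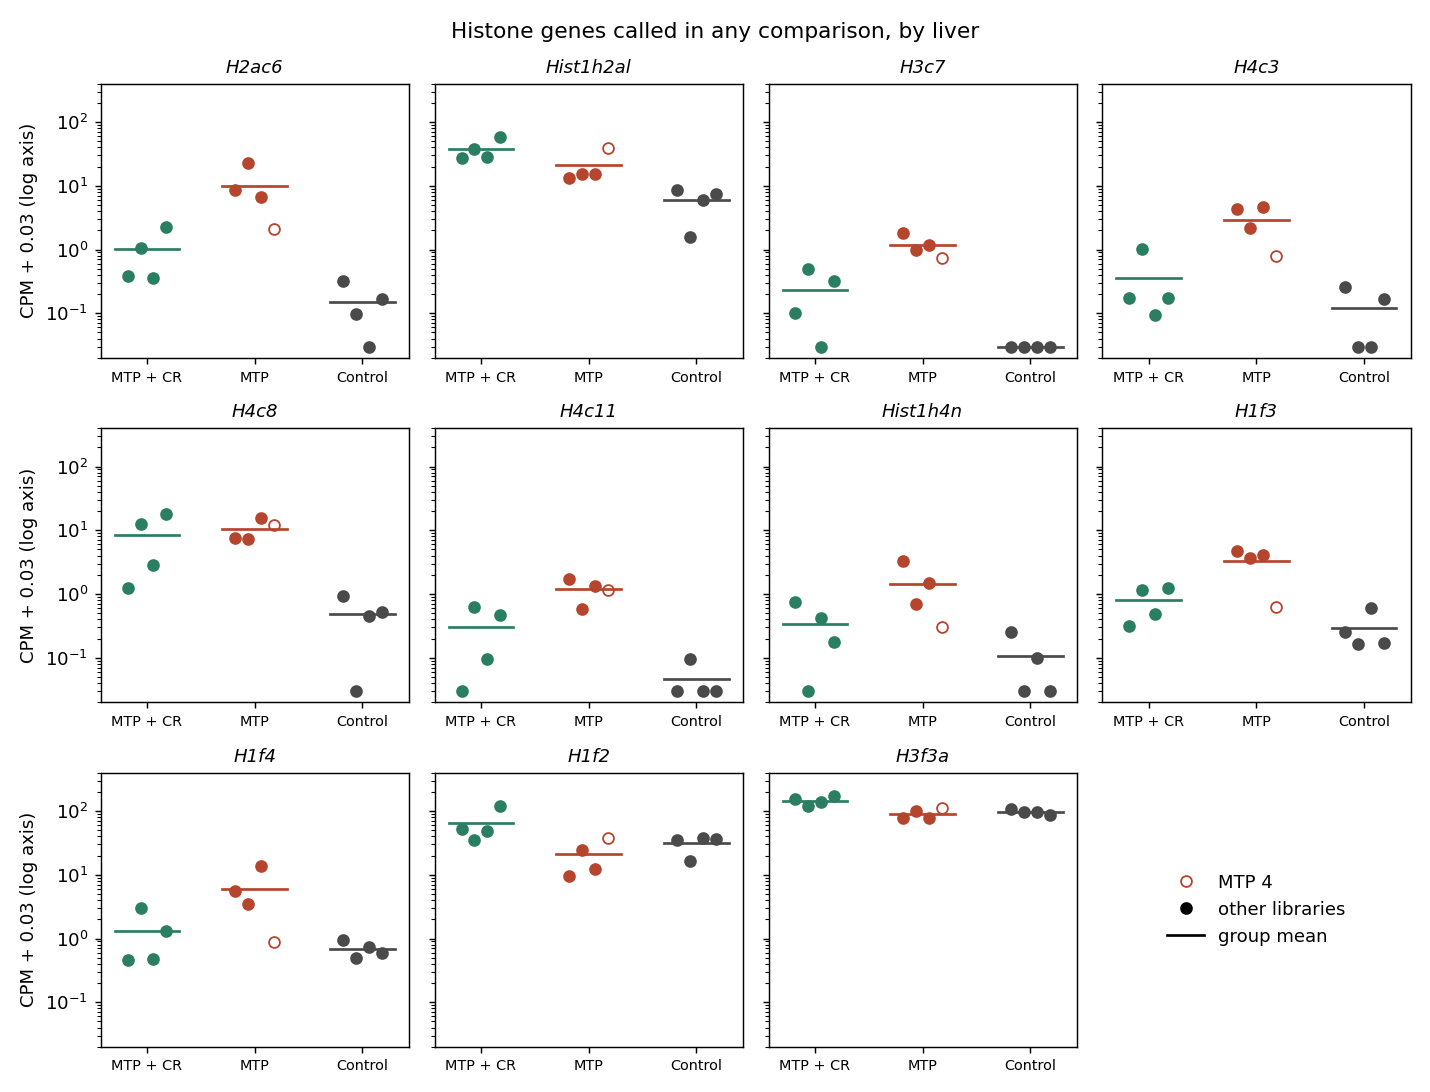
CPM + 0.03 on a log axis of the 11 histone genes called in any comparison, with 1 point per liver for MTP + CR, MTP and Control from left to right, a line at each group mean and an open circle for MTP 4. H2ac6, H3c7, H4c3 and H4c11 are low in MTP + CR, high in MTP and near 0 in Control, whereas H1f2 and H3f3a are highest in MTP + CR.

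The calls differed in how far they rested on single livers. H2ac6, H3c7 and H4c8 stayed called with each of the 12 libraries left out in turn. H1f3 and H4c11 were lost only without Control 1, and H4c3 only without Control 3 or without MTP 3. H1f4 stayed called in 6 of the 12, Hist1h4n in 2 and Hist1h2al in 1. The number of members called ran from 4 without Control 1, over 5 without Control 3 and 5 without MTP 3, to 16 without MTP 4. Without Control 1, Control 3 or MTP 3, the share of all genes called higher was 0.724%, 0.716% and 0.714%. The fit without MTP 4 tested 39 members and called 5.92% of all genes higher and 7.01% lower. The 16 were all higher, and besides H3c7, H4c3, H4c8, H4c11, Hist1h4n, H2ac6, H1f3 and H1f4 they took in H4c1, H3c4, H3c6, H3c10, H2bc6, H2bc9, H1f1 and Hist1h2ao, which were named after their values were seen. Of the 9 members called with all livers, 8 stayed called without MTP 4, with log2 fold changes of 3.46 (H1f4) to 7.44 (H3c7), and Hist1h2al at 1.28 did not.

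Across all 72 members, with no filter, every MTP liver was higher than every Control liver for 19 members and lower for 0. Over the 30035 genes with a count the shares were 4.73% and 5.15%. Of the 19, 16 were replication-dependent: 6 of the 12 H3 genes, 5 of the 12 H4 genes, 3 of the 5 H1 genes, 1 of the 15 H2A genes and 1 of the 16 H2B genes. By sequence, 11 of the 42 with a stem-loop and 5 of the 18 without one were among the 16. The other 3 were H1f10, H3f3b and Hist1h2al. Without MTP 4 the counts were 34 higher and 2 lower, against 3313 and 2718 of the 30035 genes. H3c10, an H3 gene under the filter that was named after its values were seen, had 1.354, 0.613, 0.771 and 0.162 CPM in MTP 1 to 4 and no count in any Control liver. H4c1 and H3c6, likewise under the filter, had 3.53, 1.504, 3.09 and 0.269 CPM and 2.42, 1.23, 1.67 and 0.377 CPM in MTP livers, with at most 0.278 and 0.213 CPM in any Control liver.

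The H2B genes with the highest Control levels did not share this pattern. H2bc4, the H2B gene with the highest CPM and FPKM, had 24.7, 47.9, 31.8 and 44.9 CPM in MTP livers and 68.3, 25.2, 63.3 and 46.3 CPM in Control livers. The groups overlapped widely, and the log2 fold change was -0.45 ± 0.35 (adjusted p 0.488, edgeR). Over the alternative fits it ran from -0.68 to 0.07. H2bc8, H2bc12 and Hist1h2bq, named after their values were seen, had log2 fold changes of -0.53, -0.48 and -0.56, each with an SE of at most 0.35. Of 10 H2B genes tested, edgeR called 0, where 2.61% of all genes were called higher and 2.78% lower. With 10 genes, 0 calls is close to these shares. At an unadjusted p under 0.05, 3 were higher and 0 lower, against 11.6% and 11.2% of all genes. DESeq2 called 2 higher, against 5.59% of all genes. H2bc6 at 3.38 ± 1.09 (adjusted p 0.0843, edgeR) had the largest value.

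Divergent pairs set an H2A gene beside an H2B gene. In 12 cases an H2A and an H2B gene start back to back with 175 to 301 bases between their starts. H2ac14, among these H2A genes, is an annotated pseudogene. The H2B gene had the higher mean CPM in 10 of the 12 pairs in Control livers and in 11 of the 12 in MTP livers. Of all genes with a count, 4.73% were higher in MTP than in Control without overlap. The H2A gene was so in 1 of the 12 pairs and the H2B gene in 0. That pair is H2ac6 and H2bc4, with 250 bases between them. H2ac6 averaged 10.0 ± 8.85 CPM in MTP livers and 0.123 ± 0.122 CPM in Control livers, whereas H2bc4 averaged 37.3 ± 10.96 CPM in MTP livers and 50.8 ± 19.5 CPM in Control livers (SD, n = 4 each). The lower H2bc4 mean in MTP rests on the TMM factors. Its deposited FPKM, which carry none, averaged 39.3 in MTP livers and 39.7 in Control livers. The stretch between their starts is shown because H2ac6 was higher in MTP without overlap and H2bc4 was not. It reads as follows on the plus strand of GRCm38 (RefSeq promoter table), with H2ac6 leaving to the left and H2bc4 to the right, and with matches on either strand to the TATA box (TATAAA), to the CCAAT box and to the octamer (ATTTGCAT) in capitals.
chr13:23683949-23684198: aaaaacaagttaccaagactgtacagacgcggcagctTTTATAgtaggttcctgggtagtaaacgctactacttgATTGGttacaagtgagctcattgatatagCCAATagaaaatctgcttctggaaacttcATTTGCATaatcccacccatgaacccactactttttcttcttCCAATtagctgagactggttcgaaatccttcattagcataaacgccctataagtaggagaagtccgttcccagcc
It holds 1 match to TATAAA, 3 to CCAAT and 1 to ATTTGCAT, and no match overlaps another. Textbook promoters hold these motifs, and a match here is a description of letters only.

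**Figure D4:**
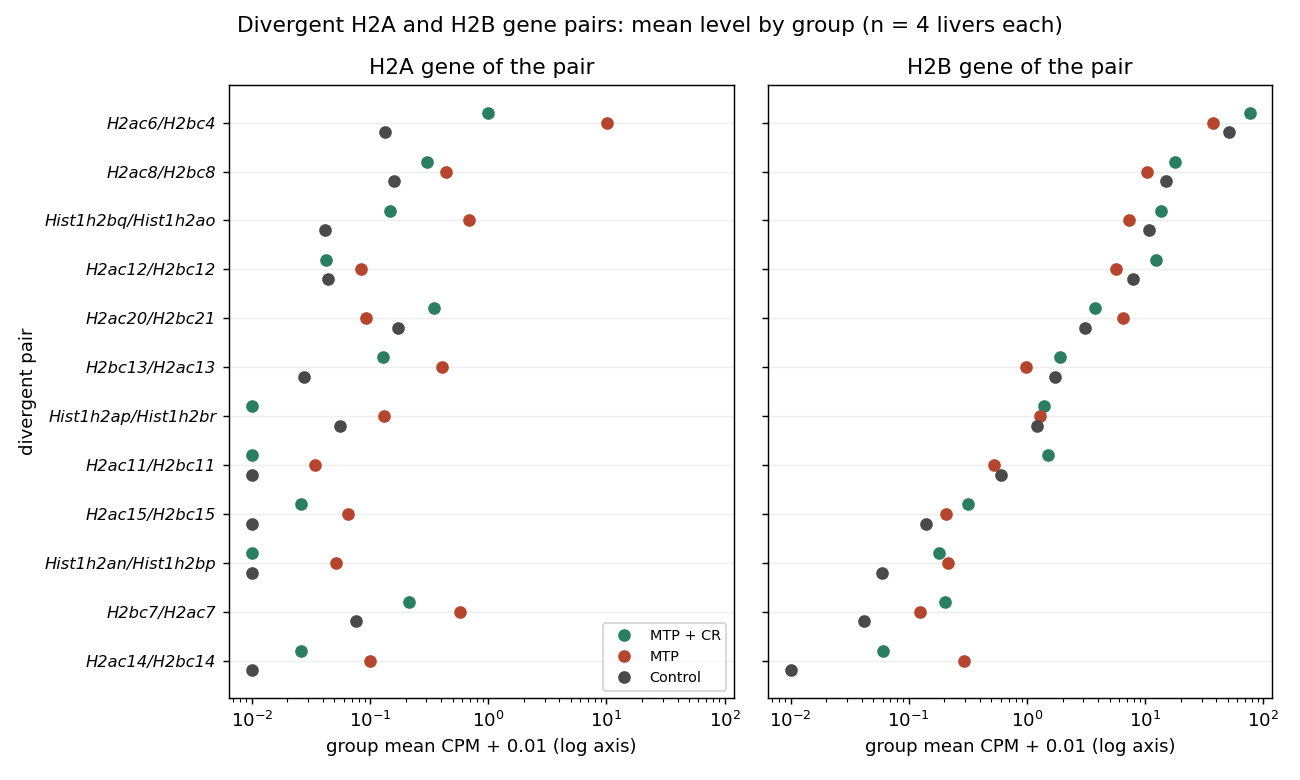
Mean CPM + 0.01 on a log axis of the H2A gene (left) and the H2B gene (right) of 12 divergent pairs, ordered by the Control mean of the H2B gene, with 1 point per group (n = 4 livers). H2ac6 stands at 10.0 CPM in MTP and 0.123 CPM in Control, whereas its partner H2bc4 stands at 37.3 CPM in MTP and 50.8 CPM in Control. The H2bc4 difference rests on the TMM factors.

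Among the promoters of the family, 63 members matched the RefSeq table, which gives 250 bases before and 50 after each start. TATAAA on either strand was in 59.3% of the 54 promoters of replication-dependent genes, against 13.6% of 32851 promoters in the table. CCAAT was in 85.2%, against 37.4%, and among these 54 it was in every H1, H2A, H2B and H3 promoter but in 27.3% of the H4 promoters. ATTTGCAT was in 35.7% of the H2A and 35.7% of the H2B promoters, in 0 H1, H3 and H4 promoters, and in 1.74% of all.

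The replication-independent genes, 6 of 6 tested, gave 0 calls for MTP against Control in edgeR, where 2.61% of all genes were called higher and 2.78% lower. With 6 genes, 0 calls is close to these shares. At an unadjusted p under 0.05, 2 were higher and 0 lower, against 11.6% and 11.2% of all genes. DESeq2 called H1f10 and H3f3b, both higher, against 5.59% of all genes. H3f3b, 1 of the 2 genes for histone H3.3, had 204, 245, 194 and 169 CPM in MTP livers and 112, 132, 154 and 91.5 CPM in Control livers. The groups did not overlap, but the log2 fold change of 0.73 ± 0.24 did not pass (adjusted p 0.0895, edgeR). It was called in 5 of 14 alternative settings, total counts alone and DESeq2 among them. H3f3a, the other H3.3 gene, had 78.9, 99.4, 76.7 and 111 CPM in MTP livers and 108, 96.6, 97.0 and 85.6 CPM in Control livers (log2 fold change -0.08 ± 0.20). H1f10, a linker histone of low level here, had 1.97, 0.947, 2.87 and 1.51 CPM in MTP livers and at most 0.426 CPM in Control livers (log2 fold change 2.77 ± 1.01, adjusted p 0.121, edgeR). The direction of the small differences in H1f0, H2az2, H3f3a and H3f3c turned with total counts alone, to log2 fold changes of 0.34, 0.07, 0.37 and 0.42. H1f0, the linker histone of resting and differentiated cells, averaged 125 ± 28.6 CPM in MTP livers and 138 ± 39.1 CPM in Control livers. The H2A.Z genes H2az1 and H2az2 had log2 fold changes of 0.02 ± 0.69 and -0.35 ± 0.29. H2az1 was low, at 1.26 ± 0.793 CPM in MTP livers and 1.25 ± 1.09 CPM in Control livers. It shares 58.8% of its windows, Tmcc1 first, so its value is imprecise. H2az2 averaged 22.4 ± 8.54 CPM in MTP livers and 28.6 ± 4.66 CPM in Control livers. H3f3c, a processed pseudogene with 56.7% of its windows in common with other genes, H3f3a first, averaged 20.1 ± 5.41 CPM in MTP livers and 20.5 ± 2.52 CPM in Control livers.

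Per length, the 6 members with the highest mean FPKM over all 12 livers were H1f0 at 66.4, Hist1h2al at 62.5, H3f3c at 53.4, H2ac18 at 50.8, H2bc4 at 45.5 and H3f3b at 29.5 FPKM. The gene length behind the deposited FPKM exceeds the annotated exons of 10 members, which lowers their FPKM. On the exons of GENCODE vM21, H3f3b would stand at 56.6 and H3f3a at 31.2 FPKM. Replication-independent genes, pseudogenes and a few clustered genes thus led the family, whereas most replication-dependent genes were near 0.

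The comparison of MTP + CR with MTP asked what crocin changed in mice given triptolide. It shares the MTP libraries with the comparison above. In MTP + CR livers 2 members were called higher and 3 lower than in MTP livers, where 12.4% of all genes tested were called, 5.94% higher and 6.51% lower. Scaling changed the split. With RLE factors 3 were called higher and 2 lower, against 6.19% and 6.28% of all genes. With total counts alone 1 was called higher and 9 lower, against 2.72% and 27.2% of all genes. The median log2 fold change of the 32 members tested was -0.11, against -0.03 over all genes tested, with the same limit from the filter.

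The members called lower were H2ac6, H4c3 and H1f3. H2ac6 had 0.355, 1.04, 0.323 and 2.23 CPM in MTP + CR 1 to 4, against 8.66, 22.6, 6.73 and 2.05 CPM in MTP 1 to 4. MTP 4 lay within the range of the MTP + CR livers, and the other MTP livers were above it (log2 fold change -3.34 ± 0.77, adjusted p 0.0241, edgeR). H4c3 had 0.142, 0.979, 0.0647 and 0.144 CPM in MTP + CR livers, against 4.27, 2.12, 4.54 and 0.754 CPM in MTP livers, with an overlap at MTP 4 (log2 fold change -3.10 ± 0.85, adjusted p 0.0363, edgeR). H1f3 had 0.284, 1.11, 0.453 and 1.22 CPM in MTP + CR livers, against 4.72, 3.68, 4.11 and 0.592 CPM in MTP livers (log2 fold change -2.09 ± 0.65, adjusted p 0.0498, edgeR). H3c7 was lower in each MTP + CR liver, at 0.0711, 0.457, 0 and 0.288 CPM, than in each MTP liver, but did not pass (log2 fold change -2.45 ± 0.77, adjusted p 0.0604, edgeR).

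H1f2 and H3f3a were called higher. H1f2 had 51.5, 35.4, 49.0 and 121 CPM in MTP + CR livers, against 9.68, 24.3, 12.3 and 37.9 CPM in MTP livers. Only MTP 4 reached the range of the MTP + CR livers (log2 fold change 1.61 ± 0.47, adjusted p 0.0434, edgeR). H3f3a had 155, 118, 136 and 170 CPM in MTP + CR livers, against 78.9, 99.4, 76.7 and 111 CPM in MTP livers, without overlap (log2 fold change 0.66 ± 0.20, adjusted p 0.0480, edgeR). H3f3a kept its call in 7 of 14 alternative settings and lost it under total counts alone, among others. With each of the 12 libraries left out in turn, H3f3a stayed called in 2 fits and H1f2 in 3. Of the members called lower, H1f3 stayed called in 1 of these 12 fits, H4c3 in 5 and H2ac6 in 7. H2bc4 had 72.7, 58.1, 53.3 and 121 CPM in MTP + CR livers, above each MTP liver, and just missed the threshold (log2 fold change 1.03 ± 0.35, adjusted p 0.0646, edgeR). Every MTP + CR liver exceeded every MTP liver for 4 of the 72 members (H2bc4, H2bc12, Hist1h2bq and H3f3a) and lay below for 2 (H3c7 and H2ac4), against 4.59% and 5.09% of the genes with a count.

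These calls were few and rested on the choice of livers. The count of members called was 0 without MTP 1, without MTP 3, without MTP + CR 1 or without MTP + CR 3, 1 without MTP 2, 2 without MTP + CR 4, 3 without Control 4, 10 without MTP + CR 2 and 17 without MTP 4. In the 4 cases with 0 calls by edgeR, 6 to 8 members were higher and 5 to 13 lower at an unadjusted p under 0.05, where 11.7% to 15.8% of all genes were higher and 12.6% to 15.8% lower. DESeq2, with all livers, called 5 members higher and 4 lower, against 11.4% and 10.4% of all genes. With MTP 4 left out, 7 of 39 members tested were called higher and 10 lower, while the share of all genes called was 14.1% higher and 11.7% lower. The 10 lower were H1f3, H1f4, H2ac6, Hist1h2ao, H3c4, H3c6, H3c7, H3c10, H4c1 and H4c3, and the 7 higher were H1f2, H2ac19, H2bc4, H2bc12, Hist1h2bq, Hist1h2al and H3f3a. Among them the 5 called with all livers had log2 fold changes of -3.67 (H2ac6), -3.39 (H4c3), -2.42 (H1f3), 2.07 (H1f2) and 0.78 (H3f3a). H2ac19 had 0, 0, 2.91 and 17.0 CPM in MTP + CR 1 to 4 and no count in any MTP liver. Its windows are all shared with H2ac18, so its split from that gene is unknown. With MTP + CR 2 left out, where 10 members were called, 7.31% of all genes were called higher and 6.69% lower.

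H2ac18, an H2A gene among the members with the highest FPKM, varied widely within groups. It had 61.3, 55.1, 59.4 and 79.0 CPM in MTP + CR livers, 0.615, 6.41, 10.5 and 64.2 CPM in MTP livers and 33.3, 0, 6.82 and 5.49 CPM in Control livers. MTP 4 stood at the level of the MTP + CR livers, and the other MTP livers did not. With H2ac19 added, the sum was 55.1 to 96.0 CPM in MTP + CR livers and at most 33.3 CPM in Control livers. No comparison called H2ac18, and its log2 fold change for MTP against Control was 0.83 ± 1.15 and turned negative without MTP 4.

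Between MTP + CR and Control 2 members were called higher and 0 lower, where 1.33% of the genes tested were called, 0.329% higher and 1.00% lower. At an unadjusted p under 0.05, 10 members were higher and 0 lower, against 11.1% and 10.8% of all genes tested. DESeq2 called 5 members higher and 0 lower, against 3.70% and 3.92% of all genes. H4c8 had 1.21, 12.4, 2.85 and 17.7 CPM in MTP + CR livers, against 0.913, 0, 0.426 and 0.486 CPM in Control livers (log2 fold change 4.18 ± 0.86, adjusted p 0.0346, edgeR). MTP + CR 1 was close to the highest Control liver and the others were well above. Hist1h2al had 27.7, 37.5, 28.6 and 57.7 CPM in MTP + CR livers, against 8.50, 1.54, 5.96 and 7.43 CPM in Control livers, with no overlap (log2 fold change 2.69 ± 0.50, adjusted p 0.0211, edgeR). The median log2 fold change of the 32 members tested was 0.89, against -0.02 over all genes tested, with the same limit from the filter. Every MTP + CR liver exceeded every Control liver for 5 of the 72 members (H2ac6, H2ac18, Hist1h2al, H3f3a and H4c8) and lay below for 0, against 4.05% and 4.55% of the genes with a count. The count of calls was 0 by edgeR without Control 3, without Control 4 or without MTP + CR 4. In these fits 0.518%, 0.409% and 0.538% of all genes were called. At an unadjusted p under 0.05, 7 or 8 members were higher there, against 7.93%, 7.73% and 6.77% of all genes. The count was 1 without Control 1, without Control 2 or without MTP 2, where 0.404%, 0.678% and 0.855% of all genes were called. With the H4 genes not called, H4c3 and H4c11 had log2 fold changes of 1.73 ± 1.07 and 3.55 ± 1.23.

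**Figure D5:**
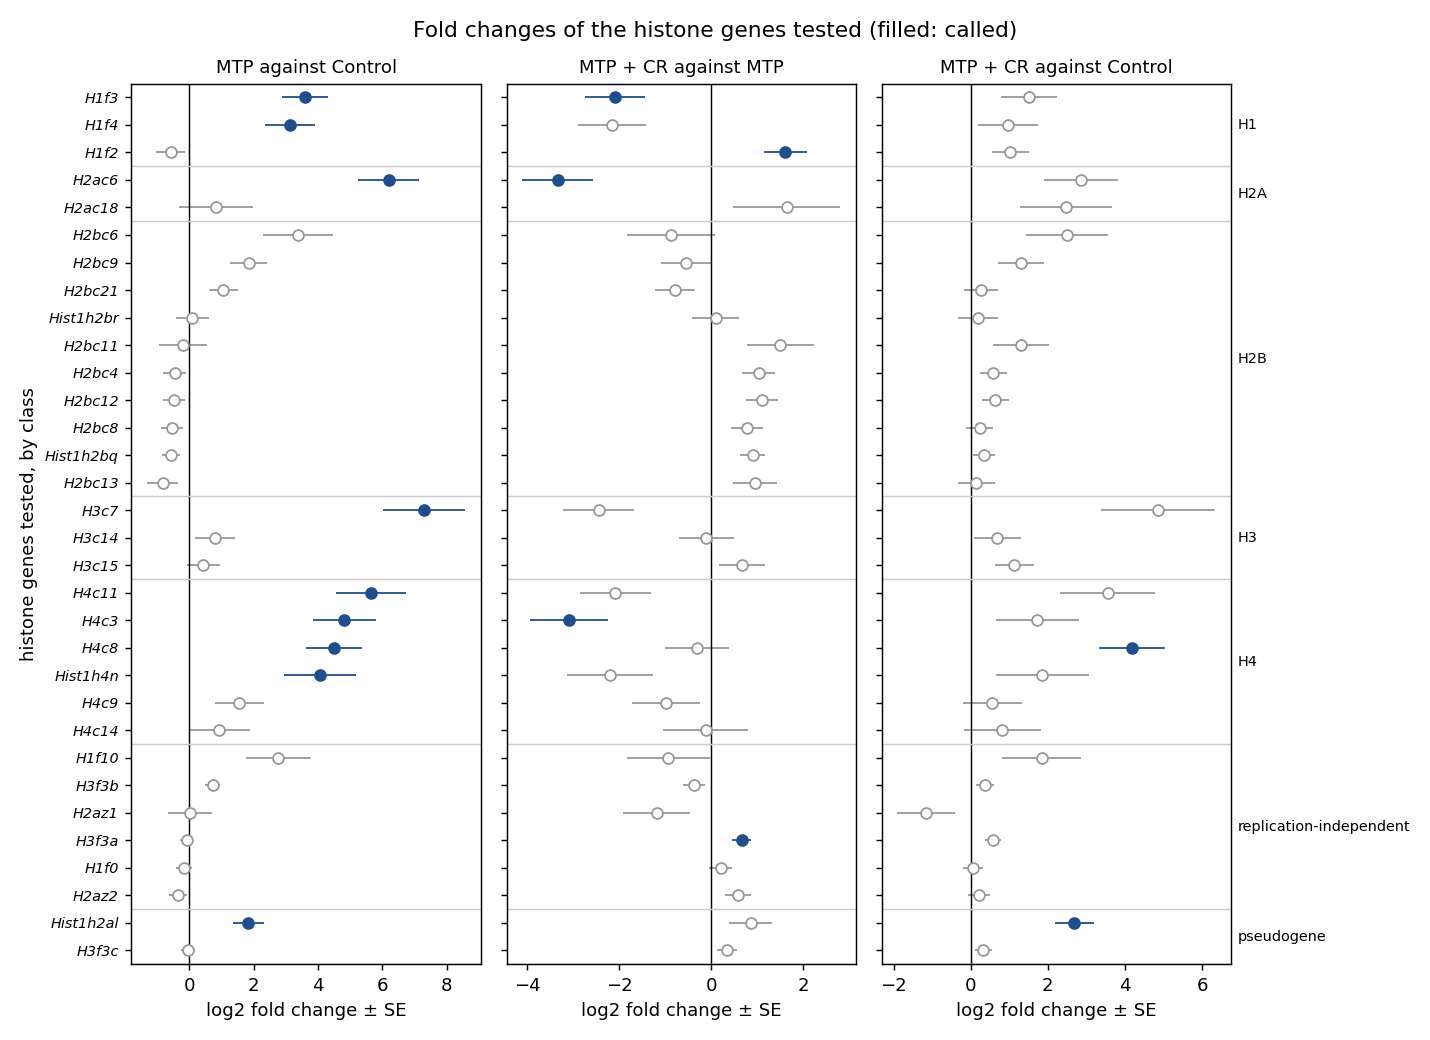
Log2 fold changes with SE bars of the 32 histone genes tested, by class, for MTP against Control, MTP + CR against MTP and MTP + CR against Control (edgeR), with filled points for genes called. The 9 filled points of the first panel all lie to the right of 0, and the 5 of the second panel lie on both sides. The first 2 panels share the MTP libraries.

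Genes that act on histone mRNA and protein were taken from lists set with earlier results of these data known. Of 23 tested genes of histone mRNA transcription and processing, 0 were called higher and 1 lower in MTP against Control, where 5.40% of all genes were called. That gene was Lsm10, a subunit of the U7 snRNP that cleaves histone mRNA after the stem-loop, with 1.81, 2.62, 2.96 and 4.79 CPM in MTP livers and 7.42, 7.62, 5.47 and 8.54 CPM in Control livers (log2 fold change -1.26 ± 0.32, adjusted p 0.0374, edgeR). In MTP + CR against MTP, Lsm10 was called higher (1.09 ± 0.32, adjusted p 0.0429, edgeR). Npat, the activator of histone gene transcription, and Casp8ap2, its partner in histone locus bodies, were called lower in that comparison, by -1.36 ± 0.39 and -1.05 ± 0.31 on the log2 scale (adjusted p 0.0401 and 0.0442, edgeR). Npat had 5.83, 10.2, 10.2 and 3.16 CPM in MTP + CR livers, 24.2, 15.04, 27.2 and 8.99 CPM in MTP livers and 9.36 to 12.5 CPM in Control livers, and MTP 4 was below each Control liver. These 3 were 1 of 23 higher and 2 lower, where 12.4% of all genes were called. At an unadjusted p under 0.05, 4 were higher and 5 lower, and DESeq2 called 4 higher and 4 lower. Without MTP 4, 4 of the 23 were called higher and 6 lower, and 1 higher and 1 lower for MTP against Control. Slbp, which binds the stem-loop, had log2 fold changes of 0.39 ± 0.32 and -0.15 ± 0.32 in these comparisons. Of 26 histone chaperones and deposition factors tested, edgeR called 0 for MTP against Control (3 higher and 2 lower at an unadjusted p under 0.05, and 1 lower by DESeq2). For MTP + CR against MTP it called 1 lower, the chaperone gene Spty2d1 (-1.39 ± 0.34, adjusted p 0.0288, edgeR), and without MTP 4 it called 1 higher and 3 lower, and Spty2d1 higher in MTP against Control. Of 6 tested histone variant genes whose names lie outside the rule, such as H2ax, none was called by edgeR in any comparison, 1 or 2 in each were higher at an unadjusted p under 0.05, and DESeq2 called 1, in MTP + CR against Control.

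Of 33 DNA replication and cell cycle genes tested, 2 were called higher and 1 lower in MTP against Control. Pcna, the sliding clamp of DNA polymerase, had 61.8, 38.0, 64.3 and 27.9 CPM in MTP livers and 13.96 to 17.6 CPM in Control livers (log2 fold change 1.62 ± 0.28, adjusted p 0.00808, edgeR). Cdc45, a subunit of the replicative helicase, rose by 1.52 ± 0.37 (adjusted p 0.0322, edgeR), and Tk1, the thymidine kinase of the salvage pathway, fell by 2.34 ± 0.38 on the log2 scale (adjusted p 0.00711, edgeR). The median log2 fold change of the 33 was 0.70, against 0.02 over all genes, and 5.40% of all genes were called. At an unadjusted p under 0.05, 7 were higher and 1 lower, and DESeq2 called 3 higher and 1 lower. In MTP + CR against MTP 1 was called higher (Tk1) and 4 lower (Mcm4, Cdc6, Cdt1 and Pcna), where 12.4% of all genes were called, and the median was -0.43, against -0.03. At an unadjusted p under 0.05, 2 were higher and 9 lower, and DESeq2 called 2 higher and 6 lower. Pcna, named here after its values were seen, had 21.3, 27.7, 21.4 and 33.4 CPM in MTP + CR livers (log2 fold change -0.89 ± 0.27, adjusted p 0.0483, edgeR), and it lost its call without MTP + CR 2 (-0.91 ± 0.31, adjusted p 0.0613). Without that library 1 of the 33 was called higher and 2 lower, and without MTP 4, 1 higher and 5 lower. Mki67, a gene of dividing cells, was not called. It had 26.8, 11.25, 3.39 and 11.95 CPM in MTP livers and 5.55 to 13.99 CPM in Control livers.

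Markers of other cell types were summed in each liver. Over all genes tested, 5.40% were called in MTP against Control, 12.4% in MTP + CR against MTP and 1.33% in MTP + CR against Control. The 12 granulocyte precursor and neutrophil markers summed to 550, 68.4, 23.9 and 588 CPM in MTP 1 to 4, against 13.9, 206, 42.7 and 61.3 CPM in Control 1 to 4, and 4 of 10 tested (Ms4a3, Ctsg, Elane and Mpo) were called higher in MTP and, against MTP, lower in MTP + CR. Without MTP + CR 2 the call against Control was kept by 2 (Ms4a3 and Ctsg). The sums of MTP 2 and MTP 3 lay within the Control range. The H4 sums of MTP 1 to 4 were 36.5, 17.7, 41.2 and 17.8 CPM. The 10 hepatocyte markers summed to 32573 to 55822 CPM in MTP livers and 97403 to 165368 CPM in Control livers. In that comparison 3 of 10 hepatocyte markers (Serpina1c, Alb and Cyp2e1) and 1 of 6 erythroid markers (Hba-a2) were called lower, and 7 and 4 without MTP 4. In MTP + CR against MTP 5 of 10 hepatocyte markers were called higher, and 8 without MTP 4. Ccr2, a chemokine receptor gene of monocytes, had 4.62, 4.70, 4.07 and 3.09 CPM in MTP + CR livers, 22.7, 17.9, 11.18 and 12.2 CPM in MTP livers and at most 9.37 CPM in Control livers. It was called higher in MTP against Control (log2 fold change 1.27 ± 0.30, adjusted p 0.0308, edgeR) and lower in MTP + CR against MTP (-1.95 ± 0.31, adjusted p 0.00714, edgeR). Of 9 Kupffer cell and monocyte markers it was the only one called in these comparisons. The list mostly went the other way in MTP against Control, with a median log2 fold change of -0.54. There 1 was higher and 4 lower at an unadjusted p under 0.05, and DESeq2 called 1 higher and 2 lower. The 9 summed to 487 to 705 CPM in MTP livers and 680 to 1082 CPM in Control livers. Ppbp, a platelet chemokine gene, was called higher in MTP (2.55 ± 0.65, adjusted p 0.0398, edgeR), and the other 2 platelet markers tested were not called. All 3 were higher at an unadjusted p under 0.05 (edgeR), with a median log2 fold change of 1.16. Of 11 lymphocyte markers tested, 0 were called in MTP against Control, with 0 higher and 3 lower at an unadjusted p under 0.05. Without MTP 4, 1 of these was called lower. Among endothelial markers, 5 of 7 were called lower in MTP + CR against MTP and 5 of 7 in MTP + CR against Control, where 3 were called without MTP + CR 2. Their part in the histone values was not tested. A list of 23 RNAs was taken as lacking a poly(A) tail, and 22 were in the table. No library had a count for 8 of these, Rmrp, Rny1, Rny3 and Terc among them. It holds Malat1 and Neat1, which oligo-dT can capture and which made up almost all of its counts, so the list does not measure RNAs without a poly(A) tail. edgeR called 0 of the 5 tested in any comparison. For MTP against Control 0 had an unadjusted p under 0.05 and DESeq2 called 0, and for MTP + CR against MTP the counts were 3 and 1. Without MTP 4 edgeR called 3 of the 5 higher in MTP + CR against MTP.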

How the data were processed

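Liver RNA of 12 mice was analysed, with 1 library per mouse. Per the study's methods, the authors aligned trimmed reads using Hisat2 and quantified genes using Stringtie. They deposited counts, which are whole numbers, beside FPKM values, which divide the counts by gene length and library total, for 55487 genes. The submitters' processing notes name Bowtie 0.12.2 and mm10, and the annotation release is not given in the sources used here. Coordinates, transcripts and stem-loops come from GENCODE vM21, where all 72 members were matched by identifier.

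Counts were fitted in R 4.3.3 with edgeR 4.0.16 over all 3 groups: filterByExpr (count minimum 10, total minimum 15), TMM, the quasi-likelihood test and Benjamini-Hochberg adjustment over all genes tested. The procedure was tested on simulated data. DESeq2 1.42.0, limma 3.58.1, other factors, filters, units and samples served as alternatives. CPM values of single livers are counts over TMM-scaled totals, and the deposited FPKM carry no TMM factor. Library totals of 15509226 to 18430566 leave 3 counts as the smallest level taken as detected over a group.

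The members, lists and tests were chosen with earlier results of these data known. For MTP against Control, values of single livers, ranges or group means are given for members called in any comparison, the 6 with the highest mean FPKM and the 6 replication-independent genes. Values in MTP + CR livers are given for only some of these. In the lists, up to 4 called genes are named per comparison. Replicate numbers 1 to 4 were not treated as pairs. Raw reads were not analysed here.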

Additional observations from a re-analysis of the deposited data

Results flagged for a closer look

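In 81 groups of 4 livers (the named members and the family sums), 12 held a liver far from the other 3. Chance flags about 1 in 20 independent groups, but these sums contain named members and one another, and some members have few counts. The 12 therefore cannot be set against that rate. MTP + CR 4 was high for H1f10 (3.31 CPM, the others at most 0.426), H2az2 (49.8 CPM, at most 29.4), the sum of all replication-dependent genes (449 CPM, at most 252), the replication-dependent H1 sum (124 CPM, at most 52.2) and the replication-dependent H2A sum (100.4 CPM, at most 63.6). MTP + CR 2 was high for H4c3 (0.979 CPM, at most 0.144). MTP 4 was high for H2ac18 (64.2 CPM, at most 10.5) and Hist1h2al (39.8 CPM, at most 15.4), and MTP 3 was high for H2az1 (2.44 CPM, at most 0.944). Control 2 was low for H1f2 (16.3 CPM, the others at least 34.5) and for the replication-dependent H1 sum (16.9 CPM, at least 35.7), and it was the only Control liver with a count of H4c11 (0.0668 CPM). MTP 4 and MTP + CR 4 are also the libraries with the lowest correlation with their own groups.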

How the results depend on the processing

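For MTP against Control, 9 members were called, where 5.40% of all genes were. Total counts alone called 14, a filter of 1 CPM in 4 libraries 5 and log2(FPKM + 1) 14. These fits called 19.3%, 5.70% and 13.8% of all genes, in that order. For MTP + CR against MTP, 5 were called, where 12.4% of all genes were. Total counts alone called 10 (29.9% of all genes), DESeq2 9 (21.8%) and the likelihood ratio test 11 (19.5%). With only the 2 groups compared 0 were called (2.17% of all genes). The fits on log2(FPKM + 1) and log2(FPKM + 0.1) called 9 and 10 (22.2% and 29.6% of all genes). Quality weights called 10 (21.2%). With only the 2 groups compared, 6 members were higher and 7 lower at an unadjusted p under 0.05. For MTP + CR against Control, 2 were called, where 1.33% of all genes were. DESeq2 called 5 (7.62% of all genes) and the likelihood ratio test 5 (5.65%). Only the 2 groups compared, log2(FPKM + 1), log2(FPKM + 0.1) and quality weights called 1 each. These called 0.736%, 0.520%, 0.921% and 4.11% of all genes, in that order. Leaving out 1 library gave 4 to 16, 0 to 17 and 0 to 2 calls in these comparisons, in the same order. The share of all genes called ran from 1.58% to 12.9%, from 1.70% to 25.8% and from 0.404% to 2.36%. Without MTP 4, an alternative added after the values were seen, 36 of 72 members had groups without overlap in MTP against Control (34 higher, 2 lower), where 3313 of 30035 genes were higher and 2718 lower. In MTP + CR against MTP there were 26 (9 higher, 17 lower), where 3020 genes were higher and 3552 lower. The cause of these differences was not tested.

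Replicate numbers are shared between groups, but the correlation of same-numbered livers ran from -0.20 to 0.23 and no more than 2 of the 4 in a comparison exceeded 0.1, so the numbers were not taken as pairing. With the replicate block 8, 2 and 1 members were called, where 3.55%, 9.40% and 0.434% of all genes were. Of 1460 values of named members under an alternative, 1300 kept their side of the threshold, 108 lost the call, 52 gained it and 0 called values changed sign. Low counts and shared sequence limit precision in many members.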
